A study of Arabidopsis thaliana with 8 samples.

Results

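The genes of 3 transcription regulators, TCP15 (AT1G69690), AGL54 (AT5G27090) and IAA31 (AT3G17600), were followed in Arabidopsis thaliana plants kept under red or white light. The platform annotation pairs 3 of the 3439 probes on the array with exactly 1 of these genes, 1 probe for each gene. In all, 692 probes are paired with a single gene, and these stand for 691 genes. The genes were chosen with their red and white values already known, so that everything said below on red against white light for them is a description and no p is given. Total RNA came from 4 samples of wild-type plants of the Landsberg ecotype, a laboratory strain, that spent 48 h in red light at 20 µE, and from 4 samples of the same genotype that spent 48 h in white light at 20 µE. The labels number the samples of each light from 1 to 4, name no tissue or plant age, and are silent on whether separate plants were used. The spread between samples may therefore be technical.

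TCP15 belongs to class I of the TCP family of plant DNA-binding proteins, which regulate cell division and growth in young organs, and it is known for acting together with its close relative TCP14 in stems and leaves. AGL54 is a type I MADS-box gene. Type I genes are the less studied branch of that family, and those whose roles are known act mostly in the female gametophyte and the developing seed. IAA31 encodes an Aux/IAA protein. Proteins of that family hold back auxin response factors until auxin leads to their destruction through a short degron, and IAA31 belongs with IAA20 and IAA30 to a small branch in which this degron is missing or incompletely conserved. Red light is perceived by phytochromes, whereas white light also engages the blue-light receptors.

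Summed intensity per sample ran from 2549 to 3196 for red light and from 1691 to 2373 for white light, in the arbitrary units of the deposited table. Samples 1 and 2 of each light resembled each other, as did samples 3 and 4, so that values are also given for these sets of samples. The median intensity of all probes was 0.202 to 0.203 in red samples 1 and 2 and 0.256 to 0.257 in red samples 3 and 4. In white light it was 0.237 to 0.238 in samples 1 and 2 and 0.288 to 0.289 in samples 3 and 4. Precision is limited by the number of arrays, and the SE given for each gene below takes the 4 samples of a light as independent. Log2 values below come from quantile-normalized arrays, in which all 8 arrays are given the same distribution of values.

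TCP15 was higher in red light in every sample. Its deposited intensity was 0.479, 0.585, 0.372 and 0.230 in red samples 1 to 4, against 0.160, 0.174, 0.222 and 0.183 in white samples 1 to 4. The lowest red sample, number 4, lay just above the highest white sample, number 3, so that the groups did not overlap. Mean intensity was 0.416 ± 0.152 in red samples and 0.185 ± 0.0266 in white samples (SD, n = 4 each). After normalization the mean log2 difference, red minus white, was 1.38 ± 0.34 (SE), or 2.60-fold. Of all 3032 probes tested, 6.83% had a higher difference.

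AGL54 was also higher in red light, with a smaller difference and less scatter in red. Its intensity was 0.480, 0.429, 0.558 and 0.575 in red samples 1 to 4, against 0.215, 0.213, 0.333 and 0.336 in white samples 1 to 4. Every red sample exceeded every white sample, and within white light samples 3 and 4 stood above samples 1 and 2. The mean was 0.510 ± 0.0682 in red samples and 0.274 ± 0.0698 in white samples (SD, n = 4 each). The mean log2 difference was 1.01 ± 0.20 (SE), or 2.02-fold, and 12% of the tested probes had a higher one.

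IAA31 was the one of the 3 that was lower in red light. Its intensity was 0.488, 0.497, 0.638 and 0.649 in red samples 1 to 4, against 0.557, 0.631, 1.22 and 1.21 in white samples 1 to 4. On this scale the groups overlapped, because red samples 3 and 4 lay above white samples 1 and 2. The mean was 0.568 ± 0.0874 in red samples and 0.904 ± 0.359 in white samples (SD, n = 4 each). After normalization the 4 red values lay between 0.539 and 0.581 and the 4 white values between 0.743 and 1.10, without overlap. The mean log2 difference was -0.76 ± 0.20 (SE), which put red light at 0.592 times the white level, and 19.1% of the tested probes had a lower difference.

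**Figure D1:**
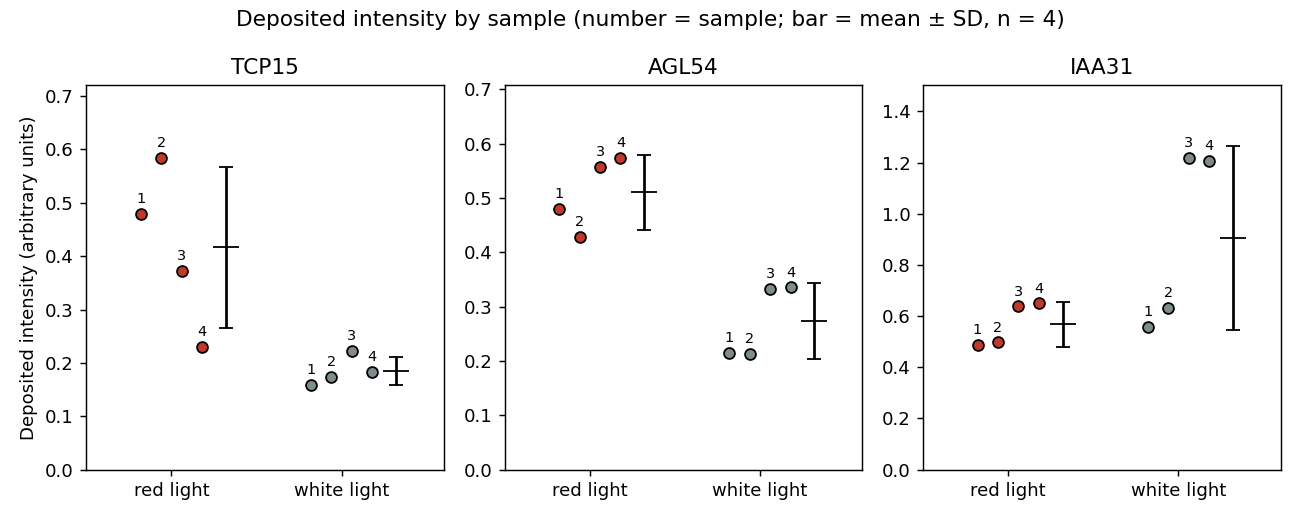
Deposited intensity in arbitrary units (vertical axis, separate for each gene) of TCP15, AGL54 and IAA31 in the 4 red and 4 white samples, with the sample number above each point and the mean ± SD beside the points. The red points lie above all white points for TCP15 and AGL54, while for IAA31 white samples 3 and 4, at 1.22 and 1.21, stand above the other 6 samples.

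After normalization each of the 3 genes had red values that were all above or all below its white values, and so did 29.2% of all tested probes. The share was 14.4% for probes higher in red light, as TCP15 and AGL54 were, and 14.8% for probes lower in red light, as IAA31 was. Nothing is read from these counts, since the genes were chosen on the same contrast. None of the normalized values of the 3 genes lay at the floor that was set for low values, 0.0716. The lowest value of each gene was 2.01 times this floor for TCP15, 2.99 times for AGL54 and 7.53 times for IAA31. In RNA from many cells, fewer cells of a type and less RNA per cell cannot be told apart as sources of a lower value.

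**Figure D2:**
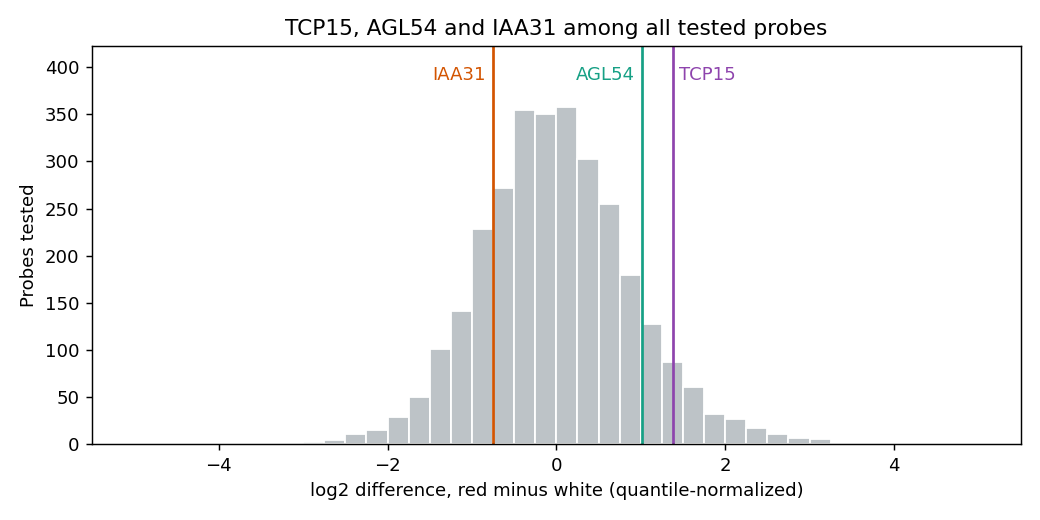
Distribution of the log2 difference, red minus white, over the 3032 tested probes (grey bars, number of probes in each interval of the horizontal axis), with the 3 genes as vertical lines. TCP15 at 1.38 and AGL54 at 1.01 lie on the right shoulder and IAA31 at -0.76 lies left of the centre, all inside the range of the other probes.

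Same-numbered samples gave the same direction for each gene, which follows from the lack of overlap after normalization. The sizes differed between samples 1 and 2 and samples 3 and 4. For TCP15 the log2 difference, red minus white, was 1.93, 2.05, 0.88 and 0.65 for numbers 1 to 4, so that it averaged 1.99 in samples 1 and 2 and 0.77 in samples 3 and 4. For AGL54 it was 1.36, 1.22, 0.74 and 0.74, with means of 1.29 and 0.74 for the same sets. Both genes thus differed more between the lights in samples 1 and 2. For IAA31 the order was the other way, with -0.40, -0.60, -1.03 and -0.99, and means of -0.50 in samples 1 and 2 and -1.01 in samples 3 and 4. All 4 differences had the same sign in 47.9% of all tested probes, positive in 23.4% and negative in 24.5%.

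The sets of samples lay apart mainly in red light for TCP15 and mainly in white light for AGL54 and IAA31. TCP15 in red light was lower by 1.14 on the log2 scale in samples 3 and 4 than in samples 1 and 2, while in white light samples 3 and 4 were higher by 0.08. For AGL54, samples 3 and 4 minus samples 1 and 2 came to -0.11 in red light and 0.44 in white light. IAA31 resembled AGL54 in this, with -0.07 in red light and 0.44 in white light. Over the 2122 probes above the floor on all 8 arrays, the median absolute difference between these sets was 0.43 for the red samples and 0.58 for the white samples, and the median absolute difference between the lights was 0.54. The difference of TCP15 between the sets in red light was therefore close in size to its mean difference between the lights. With the sets of each light fitted as random blocks, the SE of the difference between the lights was larger. It was 0.49 for TCP15, 0.29 for AGL54 and 0.30 for IAA31, against 0.34, 0.20 and 0.20 without blocks. Between samples of the same set, the largest gap on the log2 scale was 0.55 for TCP15, between red samples 3 and 4, 0.16 for AGL54 and 0.24 for IAA31, where the median gap over the 2122 probes was 0.18.

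**Figure D3:**
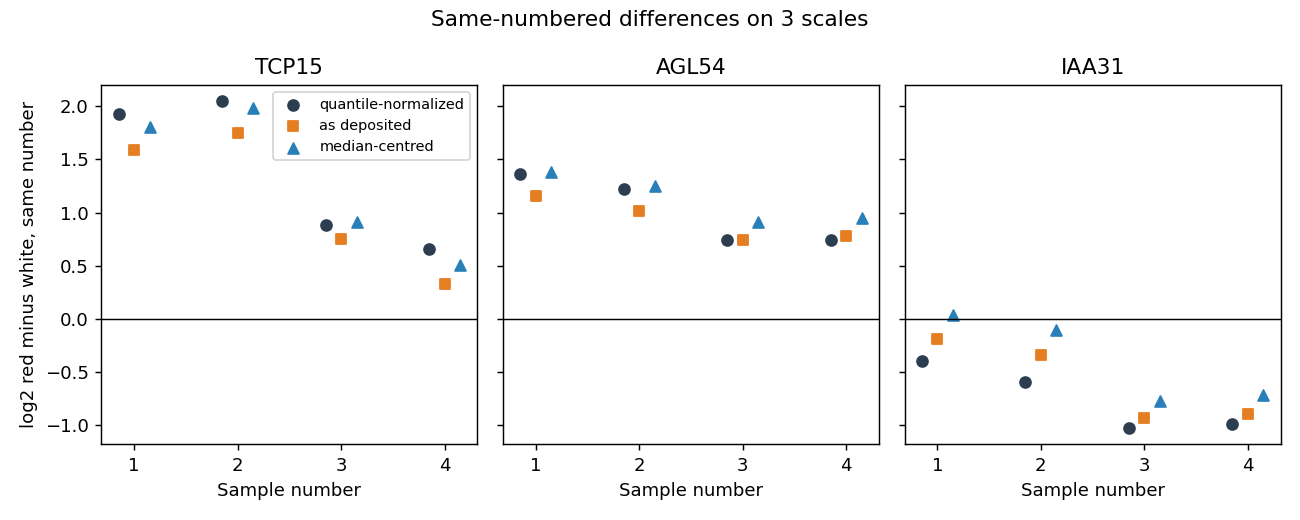
Log2 difference, red minus white, between samples of the same number (vertical axis) for sample numbers 1 to 4 (horizontal axis), with circles for quantile-normalized, squares for deposited and triangles for median-centred values. All points of TCP15 and AGL54 lie above 0, and those of IAA31 lie below 0 except number 1 with median centring, at 0.03.

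The scatter within each light was widest in red light for TCP15 and in white light for AGL54 and IAA31. On the log2 scale the SD of TCP15 was 0.71 among red samples and 0.15 among white samples. The red value was above that of 90.3% of the 2122 probes, and the white value was above that of 8.29%. IAA31 varied in the opposite manner, with an SD of 0.05 in red light, above that of 0.895% of the probes, and of 0.27 in white light, above that of 27% of them. For AGL54 the SD was 0.09 among red samples and 0.25 among white samples. The median SD of the 2122 probes was 0.34 among red samples and 0.42 among white samples. As deposited, the coefficient of variation was 36.4% in red and 14.4% in white light for TCP15, 13.4% and 25.5% for AGL54, and 15.4% and 39.7% for IAA31.

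The direction of the mean difference was the same on 3 scales of the arrays, but the size for IAA31 was not. On the deposited scale the log2 difference was 1.10 for TCP15, 0.92 for AGL54 and -0.59 for IAA31, while the median over all tested probes was -0.14. Relative to that median the differences were 1.24, 1.06 and -0.45. With arrays centred on their medians the values were 1.30 for TCP15, 1.12 for AGL54 and -0.39 for IAA31. The red and white values of IAA31 overlapped on both of these scales. With median centring its same-numbered differences were 0.03, -0.11, -0.77 and -0.72 for numbers 1 to 4, so that its mean rested mainly on samples 3 and 4. TCP15 and AGL54 did not overlap on any of the 3 scales, although the gap between the lowest red and the highest white sample of TCP15 was only 0.05 on the deposited scale.

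The profiles of the 3 genes over the 8 arrays were compared with the 430 other probes of 1 gene that were above the floor on all arrays, and these correlations describe shared arrays and carry no p. The genes closest to TCP15 were AT1G64430 (Pearson r = 0.97), AT5G63830 (0.97) and AT3G06200 (0.95), all higher in red samples 1 and 2 than in red samples 3 and 4 after normalization. Pooled over the 8 arrays with the mean of each light removed, r was 0.94, 0.91 and 0.83 for them, a scatter that is also part of the r they were chosen by. Closest to AGL54 were AT1G50390 (0.98), AT2G44760 (0.97) and AT2G14660 (0.97), with pooled values of 0.83, 0.77 and 0.71 after the light means were removed. Their log2 differences between the lights, 1.92, 1.89 and 2.34, were larger than that of AGL54. Closest to IAA31 were AT4G22490 (0.99), AT4G16610 (0.99) and AT2G28390 (0.98), with 0.94, 0.92 and 0.86 in the same pooled measure. None of these pooled values says that the likeness holds among the red or the white samples alone. The log2 differences of the 3 genes closest to IAA31 were -0.95, -0.90 and -0.60, in the order named. The table of gene names lists AT2G28390 also as MON1. Correlations over 0.9 were found with 21 probes for TCP15, 19 for AGL54 and 20 for IAA31, so that the genes named are the top of longer lists.

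**Figure D4:**
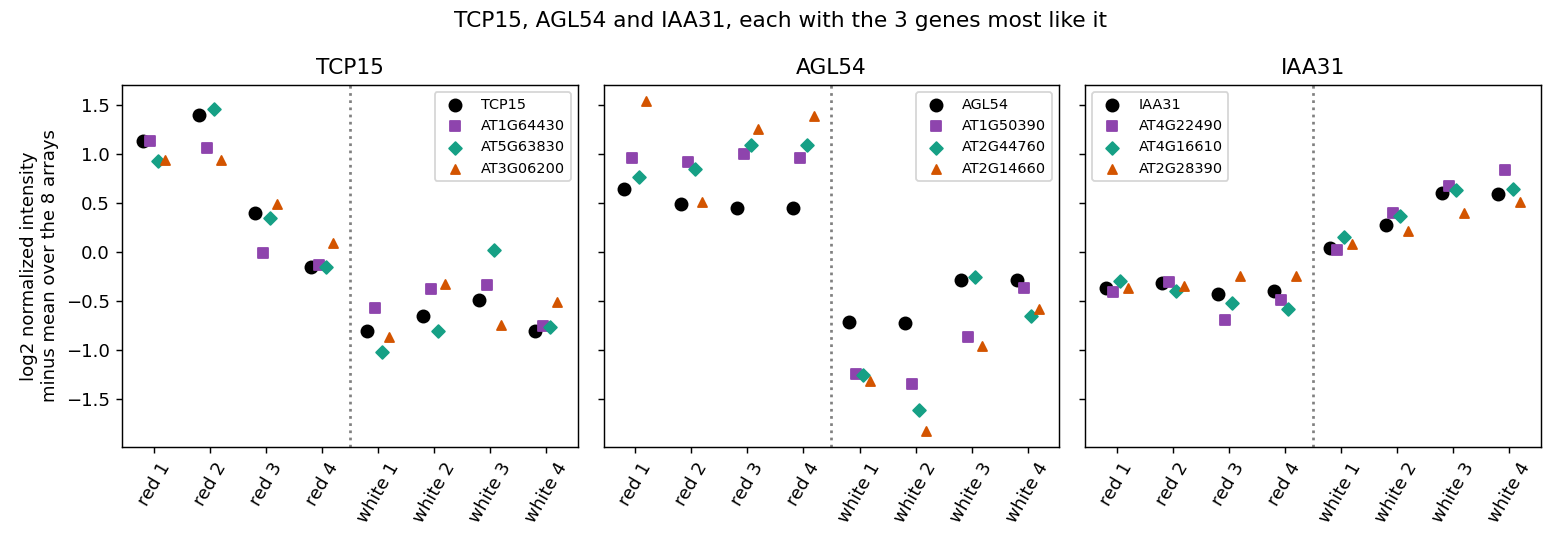
Normalized log2 intensity minus its mean over the 8 arrays (vertical axis) for each of the 3 genes (large black circles) and the 3 genes with the highest Pearson correlation with it (smaller coloured symbols), in the 4 red and 4 white samples. TCP15 and its nearest genes have their highest points in red samples 1 and 2, and IAA31 and its nearest genes have theirs in white samples 3 and 4.

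Among themselves, TCP15 and AGL54 correlated with r = 0.84 over the 8 arrays, and each ran against IAA31, with -0.72 for TCP15 and -0.76 for AGL54. Pooled over the arrays with the mean of each light removed, r was 0.24 for TCP15 and AGL54 and 0.22 for TCP15 and IAA31. AGL54 and IAA31, which differed between the lights in opposite directions, had a pooled r of 0.88 in this measure, to which the red samples add little, since both genes varied little there. Among white samples, numbers 3 and 4 were the higher ones for both genes.

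Few relatives of these genes could be read on the array. Of the 23 other TCP genes listed, 1 had a probe of its own, and of 98 other MADS-box genes 2 had one. None of the 28 other Aux/IAA genes had one, nor any of 65 genes for auxin response factors, auxin receptors, transport and synthesis or any of 36 genes of light signalling, so that the auxin pathway around IAA31 was not measured by probes of 1 gene. With a homeobox gene found by its name, 4 related regulators were tested, of which 1 rose in red light and 3 did not pass the test at a limma adjusted p under 0.05. Across all probes limma called 22%, with 11% higher and 10.9% lower in red light, so that a single call among 4 genes is close to the share over all probes.

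The call was AT2G37000, listed here in the TCP family. Its intensity was 0.401, 0.245, 0.568 and 0.541 in red samples 1 to 4, against 0.228, 0.205, 0.280 and 0.291 in white samples 1 to 4. Red sample 2 lay inside the white range as deposited, and after normalization the groups did not overlap. The mean was 0.439 ± 0.149 in red samples and 0.251 ± 0.0409 in white samples (SD, n = 4 each), with a log2 difference of 0.86 ± 0.22 (SE, limma adjusted p = 0.0261). The call ended on the deposited scale (limma adjusted p = 0.0989), with similar samples as a random block (0.318), in samples 1 and 2 alone (0.136), and without any one of red samples 1, 3 and 4 and white samples 1 and 2 (0.0537 to 0.0631). Over all 18 alternatives its limma adjusted p ran from 0.00998, in samples 3 and 4 alone, to 0.318.

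The 2 other MADS-box genes with a probe of their own did not pass. AGL26 had an intensity of 0.344, 0.833, 0.903 and 0.933 in red samples 1 to 4, against 0.321, 0.431, 0.318 and 0.304 in white samples 1 to 4. Red sample 1 lay among the white samples, and the other 3 red samples were above them all. Its log2 difference was 0.97 ± 0.33 (SE, limma adjusted p = 0.0676), and over the 18 alternatives the adjusted p ran from 0.00752 to 0.547. It passed in 4 of these, at 0.0240 with arrays centred on their medians, 0.0327 without red sample 1, 0.0439 without white sample 2 and 0.00752 in samples 3 and 4 alone. The last fit rests on similar samples only, so its p leaves out the spread between the sets of samples. That fit called 1176 of the 3032 probes, against 666 in the main fit. AGL103 had an intensity of 0.502 ± 0.178 in red samples and 0.592 ± 0.307 in white samples (SD, n = 4 each), with a log2 difference of -0.16 ± 0.31 (SE, limma adjusted p = 0.756), which was 0.05 with median centring. In both lights its samples 3 and 4 were above its samples 1 and 2. AT4G03090, also named NDX, a homeobox gene, was at the floor on 2 red and 3 white arrays and had a log2 difference of 0.33 ± 0.25 (SE, limma adjusted p = 0.373). The floor enters this value, and its direction turned on the deposited scale, to -0.03.

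**Figure D5:**
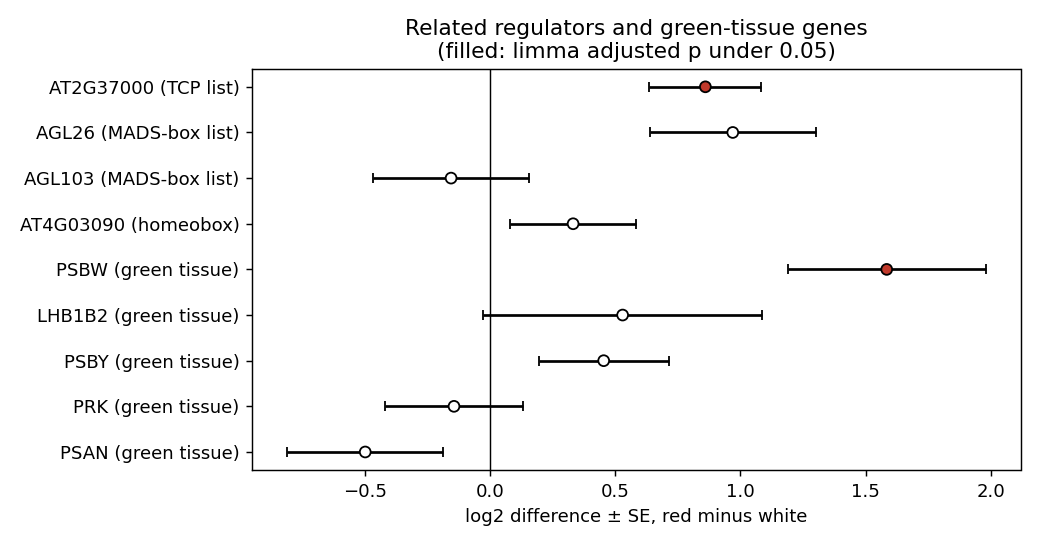
Log2 difference, red minus white, with its SE (horizontal axis) for 4 related regulators and 5 genes of green tissue, filled where the limma adjusted p was under 0.05. AT2G37000 at 0.86 and PSBW at 1.58, whose red samples 3 and 4 were at the ceiling, are filled, and the other 7 genes are open.

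Genes of green tissue were measured on the same arrays. Of 21 such markers listed, 6 had a probe of their own and 5 were tested. The photosystem II gene PSBW rose, with a fitted log2 difference of 1.58 ± 0.39 (SE, limma adjusted p = 0.0222). Red samples 3 and 4 lay at the ceiling of the scale for PSBW, so that the size of its rise was not measured, and the fitted value was 2.45 as deposited and 2.65 with median centring. Its call ended with a random block for similar samples (adjusted p = 0.1003 in limma) and without any one of red samples 3 and 4 and white samples 1, 2 and 4 (0.0508 to 0.0627), within a range of 0.000907 to 0.1003 over the 18 alternatives. LHB1B2, PSBY, PRK and PSAN did not pass, and SBPASE was listed at 0 for all 8 samples. Limma called 22% of all probes, so that 1 call among 5 markers is close to that share. LHB1B2, PSBY and PSAN passed only in samples 1 and 2 alone, a fit on similar samples. There LHB1B2 and PSBY were higher in red light (log2 difference 1.12 and 0.62) and PSAN was lower (-1.08). With median centring the log2 difference went from 0.53 to 1.54 for LHB1B2 and from 0.45 to 0.94 for PSBY. It turned from -0.50 to 0.18 for PSAN and from -0.14 to 0.21 for PRK. No seed storage gene out of 9 listed had a probe of its own, so that seed tissue, where type I MADS-box genes are best known, could not be checked. LHB1B2 of the antenna had intensities of 10.5 to 24.8 in red samples and 2.61 to 14.7 in white samples, with samples 3 and 4 above samples 1 and 2 in both lights. Any part of tissue composition in the values of TCP15, AGL54 and IAA31 was not tested.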

How the data were processed

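The deposited table holds probe intensity on a linear scale, with many values of exactly 0 and 11 values of at least 99.99, at a ceiling near 100. How the authors corrected the background or scaled these deposited intensity values is not given in the sources used here. No genome build is named there either, and coordinates are left out. Gene names rest on an old platform annotation whose probe sequences were not checked here, and 691 of 692 probes of 1 gene matched a TAIR10.1 gene table used for names. Another 870 probes are paired with several genes, 1 of them including AGL54 and 1 including IAA31, and were not named.

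Arrays were quantile-normalized, and values below 0.0716 were raised to it. This floor is the highest over the arrays of the 5th percentile of positive values. The 407 probes at the floor on all arrays were left out. Log2 values of 3032 probes were fitted with limma 3.58.1 in R 4.3.3, two-sided, with Benjamini-Hochberg adjustment. A run of the fit on simulated data drew the samples as independent. That run therefore did not test the p-values where samples of a set resemble each other. Figures were drawn with matplotlib 3.10.9.

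The genes, the lists and the floor were chosen with earlier results of these data known. Related genes were named where a listed gene had a probe of its own, other regulators by words in their names, and like genes as the 3 highest correlations. Except where a block was fitted, the p-values and SEs take the 4 samples of a light as independent. The labels number the samples, and deviations from the group means ran together between same-numbered samples of the 2 lights, with correlations of 0.239 to 0.320 across probes, against -0.206 to 0.107 for other numbers, so that the replicate number was also fitted as a block. Within a light, samples 1 and 2 or 3 and 4 had 0.334 to 0.470. Alternatives were the scaling, the floor, an offset of 0.1, a filter on dim probes, blocks, a variance trend and leaving out each sample, and the sets of samples 1 and 2 or 3 and 4 alone were added after seeing the data.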

Additional observations from a re-analysis of the deposited data

Results flagged for a closer look

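In 1 of 40 groups of 4 values examined, 1 sample stood far from the others, where chance gives about 1 in 20 for independent values. The normalized log2 intensity of AT2G37000 was -1.77 in red sample 2, with the other red samples from -1.12 to -1.02. Neither TCP15, AGL54 nor IAA31 had such a sample.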

How the results depend on the processing

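The mean difference of TCP15, AGL54 and IAA31 kept its direction under each alternative run. This was fixed in advance for the filter on dim probes, the blocks and the variance trend, which leave the mean difference itself unchanged. It was also fixed for the higher floor, the offset and fits on fewer samples, since normalized red and white values of each gene did not overlap. The size moved by more than the pooled SD of the samples within a light for AGL54 with an offset of 0.1 (log2 difference 0.79) and for IAA31 with arrays centred on their medians (-0.39). It also moved in samples 1 and 2 alone (TCP15 1.99, AGL54 1.29, IAA31 -0.50) and in samples 3 and 4 alone (0.77, 0.74 and -1.01). Leaving out each sample in turn gave 1.14 to 1.66 for TCP15, 0.94 to 1.09 for AGL54 and -0.87 to -0.68 for IAA31. The cause of these moves was not tested.

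Of all probes, 334 were called higher and 332 lower in red light. In the fit that took the replicate number as a block, the counts were 385 and 403, and the block changed no call among the 9 listed genes tested. With similar samples as a random block limma called 71 and 43 probes and 0 of the listed genes, where 2 had passed. In that fit 1 of the listed genes had an unadjusted p under 0.05. On the deposited scale 1 listed gene passed, and the calls were 294 higher and 467 lower, so that 38.6% were higher, against 50.2% after quantile normalization. Samples 1 and 2 alone gave 632 higher, 636 lower and 4 listed genes, and samples 3 and 4 alone gave 567 higher and 609 lower. Both of these fits rest on similar samples only, so their p-values leave out the spread between the sets. Without 1 sample the counts ran from 239 to 293 higher and from 214 to 320 lower, the lowest without white sample 1, and 0 to 2 listed genes passed in limma. Of the listed genes, 3 had an unadjusted p under 0.05 in each of the fits without 1 sample that called 0. Signal over background limits AT4G03090, which was at the floor on 2 red and 3 white arrays.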
